A study of Mus musculus with 11 samples.

Results

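The genes described here are 8 mouse genes known for a burst of transcription at the 2-cell stage, measured in embryos that had already reached the 8-cell stage. They are *Zscan4c*, *Zscan4d*, *Zscan4f*, *Zfp352*, *Tcstv1*, *Tcstv3*, *Tdpoz3* and *Tdpoz4*. They were chosen by symbol, and each matched 1 of the 54146 gene rows of the deposited tables. A further 10 rows belong to the same families, namely 6 *Zscan4* rows, 3 *Tdpoz* rows and the pseudogene *Zfp353-ps*, and are given where they share reads with the 8 genes.

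Single-embryo RNA-seq was performed on 11 C57BL/6 embryos collected at embryonic day 2.5 from naturally mated *Prdm10* heterozygotes. The 6 controls were labelled WT/HET, so wild-type and heterozygous embryos could not be separated, and the 5 mutants carried the deleted *Prdm10* allele on both chromosomes. The allele lacks an exon throughout the embryo and needs no Cre at this stage. Batch 1 (16 PCR cycles) held 3 controls and 2 mutants, and batch 2 (13 cycles) held 3 controls and 3 mutants. Replicate numbers here only name the embryos, and nothing in the labels pairs them.

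In the mouse, the major wave of zygotic genome activation falls at the 2-cell stage. ZSCAN4 proteins carry a SCAN domain and zinc fingers, occur in short bursts in embryonic stem cells as well, and are known for a role in telomere maintenance. The factor DUX activates many 2-cell genes, which chromatin repressors such as TRIM28, SETDB1 and LSD1 (*Kdm1a*) silence soon afterwards. Many of these genes lie in clusters of near-identical copies, so a short read often fits several of them.

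How closely the copies resemble each other decides what can be read from their separate values. The 3 *Zscan4* genes lie on chromosome 7 and have coding sequences of 1518 bases in 4 exons. *Zscan4c* and *Zscan4f* were identical at 99.6% of coding bases and differed at 6, while *Zscan4d* was 97.7% identical to both. The stretches below are coding positions 1033 to 1092, in the last exon of each gene (GRCm38). They are shown because they hold 6 positions at which the 3 copies are not all alike. Not all of these separate *Zscan4c* from *Zscan4f*. Capitals mark the columns at which the copies differ.
Zscan4c (chr7:11009508-11009567, plus strand): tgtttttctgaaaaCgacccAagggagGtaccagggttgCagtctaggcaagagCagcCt
Zscan4d (chr7:11162350-11162409, minus strand): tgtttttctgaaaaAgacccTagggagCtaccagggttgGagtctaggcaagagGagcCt
Zscan4f (chr7:11401701-11401760, plus strand): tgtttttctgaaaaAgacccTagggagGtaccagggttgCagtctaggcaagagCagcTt

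The *Tcstv* pair lies on chromosome 13, each gene in a single coding exon, and was identical at 94.7% of 507 aligned coding bases. Coding positions 394 to 453 are shown because they are less alike than the genes as a whole, with 9 differing columns in capitals.
Tcstv1 (chr13:119893642-119893701, minus strand): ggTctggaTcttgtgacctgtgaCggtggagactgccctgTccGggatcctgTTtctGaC
Tcstv3 (chr13:120317960-120318019, plus strand): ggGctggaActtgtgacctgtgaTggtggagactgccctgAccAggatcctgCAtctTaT

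*Tdpoz3* and *Tdpoz4*, which encode proteins with TRAF and POZ domains, lie on chromosome 3 and were further apart, with 77.3% of aligned coding bases identical. *Zfp352*, a zinc finger gene on chromosome 4, has a single relative among the rows, *Zfp353-ps*. Upstream of the start site, the *Zscan4* copies were again alike, with 96.8% to 99.6% of aligned bases identical over 250 bases. The 100 bases before the RefSeq start of *Zscan4c* (GRCm38.p6) are shown for the letters TATAAA, in capitals.
Zscan4c (chr7:11005645-11005744, plus strand): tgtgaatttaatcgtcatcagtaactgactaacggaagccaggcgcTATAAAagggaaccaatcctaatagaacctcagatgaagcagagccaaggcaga
Of the 5 genes with an entry in the promoter table, these letters occurred in *Zscan4c*, *Zscan4d* and *Zscan4f* and in neither *Zfp352* nor *Tdpoz4*. The search covered both strands of each whole promoter entry, which is longer than the 100 bases shown. On the same search, 13.62% of all 32851 promoters held the letters. A match is a description of the sequence and not a mapped site.

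The resemblance was measured at the length of a read. Transcripts of every gene were cut into all windows of 75 bases, and windows found in no other gene were counted. They made up 16.6% of windows for *Zscan4f*, 21.4% for *Zscan4c* and 60.5% for *Zscan4d*. The share was 45.5% for *Tdpoz3*, 80.1% for *Tdpoz4*, 85.7% for *Tcstv3*, 93.1% for *Tcstv1* and 97.1% for *Zfp352*. Most of a *Zscan4c* or *Zscan4f* transcript therefore could not be told from another copy by a single read.

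The authors' quantifier RSEM divides shared reads among genes and gives a posterior standard deviation (SD) of each count. Summed over embryos, this SD was 93.0% of the expected count for *Zscan4c*, 32.9% for *Zscan4d* and 27.5% for *Zscan4f*. It was 12.8% for *Tdpoz3*, 11.2% for *Tcstv1*, 6.45% for *Tdpoz4*, 4.73% for *Tcstv3* and 0 for *Zfp352*. The median was 0 over the 10617 genes with a mean expected count above 10. The separate *Zscan4* values are thus the least certain of the 8 genes, and *Zfp352* has no uncertainty of this kind.

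**Figure D1:**
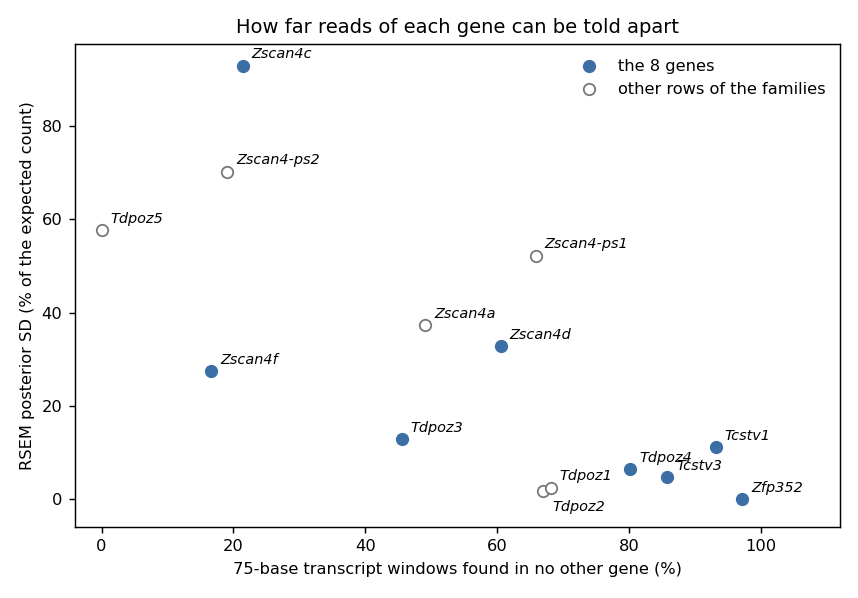
Share of 75-base transcript windows found in no other gene (x axis, percent) against the RSEM posterior SD as a percentage of the expected count (y axis), for rows with at least 10 summed reads. Filled points are the 8 genes and open points other rows of their families; *Zfp352* lies at 97.1% and 0, and *Zscan4c* at 21.4% and 93.0%.

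Reads were also shared with genes outside the named families. *Gm4982* shared the most windows with *Tdpoz3* and was listed at 0 TPM in all 11 embryos. *Gm4858*, which shared windows with *Tdpoz4*, ranged from 0 to 2.57 TPM, and *Gm21818*, which shared windows with both *Tcstv* genes, from 0 to 7.85 TPM. *Gm45551* shared 0.8% to 4.7% of the windows of each of the 9 *Zscan4* rows and had 4 reads, in 3 embryos. *Tdpoz5* had 0 windows of its own. RSEM gave it and *Gm10697*, among 6 outside genes that shared its windows, the same 360.9 reads. *Tdpoz5* values are therefore not described on their own, and sums over the *Tdpoz* rows hold its 360.9 reads but not those of *Gm10697*.

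Depth was examined as it limits what can be seen at low levels. Summed expected counts ranged from 3534735 to 8265840 per library, with a mean of 6.70e+06 ± 1.41e+06 (SD, n = 5) in mutants and 5.77e+06 ± 1.55e+06 (SD, n = 6) in controls (exact permutation test, two-sided, p = 0.316). No 2 libraries were identical, over 55 pairs. *Prdm10* itself lay between 4.88 and 8.16 TPM in mutants and between 11.1 and 24.8 TPM in controls, without overlap on that scale. Its expected counts overlapped, at 100 to 265 reads in mutants and 91.9 to 294 reads in controls. The log2 fold change of *Prdm10* was -0.66 ± 0.26 (SE, adjusted p = 0.215 in DESeq2 and 0.444 in edgeR), so neither test called it. The authors told mutants from controls by qRT-PCR of the deleted exon, which a count over the whole gene does not isolate. Of 13 markers of the 8-cell stage, 11 had a median above 1 TPM, *Sox2* and *Cdx2* being the exceptions. Such a median was seen for 11 of 12 oocyte markers with a row, 3 of 7 blood markers, 2 of 6 oviduct markers and 0 of 8 cumulus cell markers.

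Transcripts of the 8 genes were found at the 8-cell stage, at low levels (per-embryo levels are plotted by batch and genotype). No earlier stage was measured, so transcripts left over and transcripts newly made cannot be told apart. Together the 8 genes summed to between 5.12 and 20.8 TPM, with a median of 15.1 TPM, and to 645.7 reads over the 11 embryos. A gene counted as detected when its expected count rounded to at least 1 read. *Tdpoz4* was detected in 11 of 11 embryos, *Tcstv1* and *Tcstv3* in 8, *Tdpoz3* in 7, *Zscan4d* in 6, *Zscan4f* in 5, *Zfp352* in 4 and *Zscan4c* in 3.

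**Figure D2:**
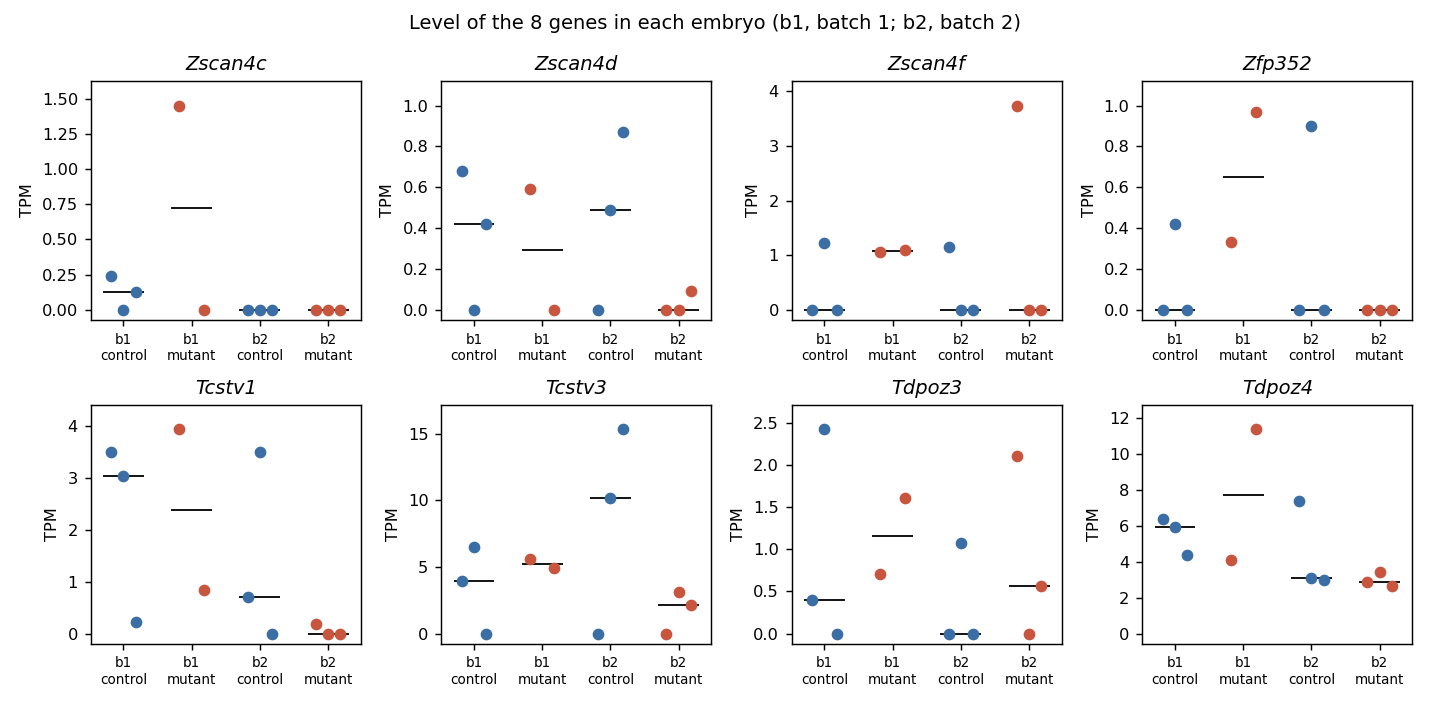
TPM of each of the 8 genes (y axis, each panel with its own scale) in every embryo, by batch (b1, b2) and genotype (x axis). Points are embryos, blue for controls and red for mutants, and lines are medians. In every panel the mutants and the controls overlap over all embryos, and *Tdpoz4* alone has no embryo at 0.

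The number of these genes detected differed between embryos. Mutant replicate 4 had reads of all 8, whereas mutant replicate 2 had reads of 2, *Tcstv3* and *Tdpoz4*. Batch 1 embryos had 4 to 8 (median 6) and batch 2 embryos 2 to 6 (median 3.5). Mutant replicate 2 was also the deepest library, and control replicate 2, the shallowest, had reads of 6. A count of 0 allows up to 3 reads, which corresponds to 0.199 to 0.487 TPM for *Zscan4c* and 0.622 to 1.97 TPM for the shorter *Tcstv3*, depending on the library. These limits cover counting error only, since reads copied by PCR were not distinguished.

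Ranked by median TPM, a scale that takes account of length, *Tdpoz4* was highest at 4.08, followed by *Tcstv3* at 3.93, *Tcstv1* at 0.71, *Tdpoz3* at 0.57 and *Zscan4d* at 0.09. The medians of *Zscan4c*, *Zscan4f* and *Zfp352* were 0. The ranges of neighbours in this order overlapped throughout. Within an embryo, *Tdpoz4* stood above 45.6% to 66.3% of the genes with a TPM above 0, and *Tcstv3* above at most 71.2%.

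*Zscan4* reads were described as a sum over the 9 *Zscan4* rows, because the sum does not depend on how RSEM divided reads among those rows. The sums lay within 0.01 of a whole number in all 11 embryos, while those of the *Tcstv* and *Tdpoz* rows deviated by up to 0.45. In batch 1, the controls had 21, 23 and 7 reads and the mutants 43 and 18. In batch 2, the controls had 7, 3 and 22 reads and the mutants 53, 0 and 1. By reads, uncorrected for depth, both the highest and the lowest embryos were mutants of batch 2, and controls lay between them.

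On the TPM scale the sum of all *Zscan4* rows was 1.98, 3.63 and 0.56 in batch 1 controls and 5.09 and 2.25 in batch 1 mutants. It was 1.15, 0.49 and 1.85 in batch 2 controls and 4.45, 0 and 0.09 in batch 2 mutants. On this scale the highest embryo was a mutant of batch 1. Unlike the summed reads, the summed TPM depends on how RSEM divided reads, because each row is scaled by its own length. Control replicates 6 and 1 had 7 reads each at similar depth but came to 0.56 and 1.15 TPM. The means were 2.38 ± 2.37 TPM (SD, n = 5) in mutants and 1.61 ± 1.17 TPM (SD, n = 6) in controls. Mutants and controls overlapped, and the difference was within the spread between embryos (exact permutation test over 462 splits, two-sided, p = 0.506). Nor did the batches differ beyond that spread, at 2.70 ± 1.72 TPM (SD, n = 5) in batch 1 and 1.34 ± 1.68 TPM (SD, n = 6) in batch 2 (same exact test, p = 0.203). The genotype tests by permutation, here and for depth, took no account of batch, nor did the batch test of genotype.

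**Figure D3:**
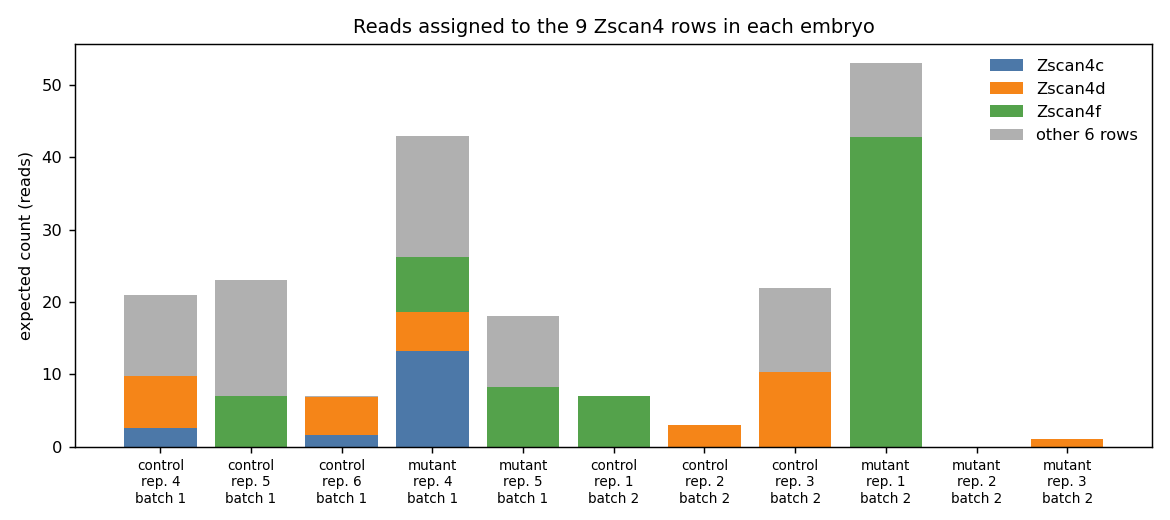
Expected counts (reads, y axis) assigned to *Zscan4c*, *Zscan4d*, *Zscan4f* and the other 6 *Zscan4* rows (stacked colours) in each embryo (x axis). Totals run from 0 in mutant replicate 2 to 53 in mutant replicate 1, and the copy with most reads changes from embryo to embryo.

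The copy with the most reads was not the same in each embryo. *Zscan4d* led in 4 embryos, *Zscan4f* in 3, the pseudogene *Zscan4a* in 2 and *Zscan4c* in 1, and 1 embryo had no *Zscan4* read. *Zscan4f* held 36.7% of the 198 *Zscan4* reads, and 42.8 of its 72.6 reads came from mutant replicate 1. *Zscan4c* had 17.4 reads, all in batch 1 and 13.2 of them in mutant replicate 4. *Zscan4d* had 32.2 reads, with a highest count of 10.4 in control replicate 3. *Zscan4c*, *Zscan4d* and *Zscan4f* together held 61.7% of the reads, and the remaining 6 rows, of which *Zscan4a* had 29.1 and *Zscan4-ps2* 26.4 reads, held the others. Given the posterior SDs above, the leading copy is an RSEM assignment rather than a count of unique reads.

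*Tcstv3* had the widest range of TPM of the 8 genes. Its levels were 3.93, 6.50 and 0 TPM in batch 1 controls and 5.56 and 4.90 TPM in batch 1 mutants. In batch 2 they were 0, 10.2 and 15.3 TPM in controls and 0, 3.11 and 2.13 TPM in mutants. The highest and 2 of the 3 embryos at 0 were controls, so the groups overlapped. *Tcstv1* ranged from 0 to 3.94 TPM, with 5 of 5 batch 1 embryos and 3 of 6 batch 2 embryos detected. Of the 189.6 reads of the pair, *Tcstv3* held 71.3%, and *Tcstv1* led in 5 embryos.

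*Tdpoz4* had reads in every embryo. Its levels were 6.39, 5.94 and 4.35 TPM in batch 1 controls and 4.08 and 11.4 TPM in batch 1 mutants. In batch 2 they were 7.41, 3.09 and 2.97 TPM in controls and 2.87, 3.40 and 2.62 TPM in mutants. The highest value was that of mutant replicate 5 and the lowest that of mutant replicate 3, and the groups overlapped. *Tdpoz3* ranged from 0 to 2.43 TPM in controls and from 0 to 2.11 TPM in mutants.

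*Tdpoz3* and *Tdpoz4* carried a small share of their family's reads. Of 3337.3 reads of the 5 *Tdpoz* rows, *Tdpoz4* held 8.2% and *Tdpoz3* 1.2%, whereas *Tdpoz2* held 43.7% and *Tdpoz1* 36.0%. This total rests in part on how RSEM divided reads between these rows and outside genes, *Gm10697* among them. Windows shared with outside genes made up 33.1% for *Tdpoz2* and 31.9% for *Tdpoz1*. *Tdpoz2* ranged from 4.47 to 52.7 TPM and *Tdpoz1* from 2.41 to 19.8 TPM. All 5 *Tdpoz* rows together summed to between 22.7 and 83.0 TPM, compared with 0 to 5.09 TPM for the *Zscan4* rows and 0.19 to 15.3 TPM for the *Tcstv* rows.

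*Zfp352*, whose reads could be placed without ambiguity, was detected in control replicates 2 and 5 and mutant replicates 4 and 5. Those embryos had 4, 3, 3 and 9 reads, at 0.90, 0.42, 0.33 and 0.97 TPM, and the other 7 embryos had 0. The limit for 3 reads was 0.232 to 0.678 TPM across libraries, so embryos with and without reads were close to what this depth can separate.

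To ask whether the levels of the 8 genes differed with loss of *Prdm10*, mutants were compared with controls using the DESeq2 Wald test with batch as a term. The call required an adjusted p under 0.05 together with a baseMean, the average of the normalised counts over all embryos, of more than 10. None of the 8 genes was called, beside 1.45% of the 10448 genes tested. Mutant and control counts overlapped for all 8, while they did not overlap for 0.925% of the 10489 genes with a baseMean above 10. Only *Tcstv3* and *Tdpoz4* passed the baseMean minimum, so the other 6 were not tested by this rule. At an unadjusted p under 0.05 the count was 0 of the 7 genes with a p, beside 11.9% of all genes tested, and the smallest p was 0.179, for *Tcstv1*. *Zscan4f* had no p because DESeq2 withheld it for an outlying count. The edgeR quasi-likelihood test called 0 of 3 genes tested (all genes 0.271%), and limma on log2(TPM + 1) called 0 of 3 (all genes 0.146%).

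For *Tcstv3*, normalised read counts averaged 9.62 ± 6.08 (SD, n = 5) in mutants and 16.3 ± 16.3 (SD, n = 6) in controls. This gave a log2 fold change of -0.73 ± 1.13 (SE; 95% interval -2.94 to 1.48; DESeq2 adjusted p = 0.890). Within batches the log2 fold change was 0.56 in batch 1 and -1.82 in batch 2. For *Tdpoz4*, normalised read counts averaged 23.1 ± 16.1 (SD, n = 5) in mutants and 24.2 ± 8.31 (SD, n = 6) in controls. Here it came to -0.11 ± 0.48 (SE, interval -1.06 to 0.84, DESeq2 adjusted p = 0.970). It was 0.48 in batch 1 alone and -0.61 in batch 2 alone. The intervals leave room for changes of more than 2-fold in either direction for *Tcstv3* and of about that size for *Tdpoz4*.

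None of the 3 family sums was called, and the *Tdpoz* sum had the narrowest interval. The *Zscan4* sum had a log2 fold change of 0.55 ± 0.92 (SE), an interval of -1.24 to 2.35 and a DESeq2 adjusted p of 0.903. Within batches it was 0.83 in batch 1 and 0.34 in batch 2, and without mutant replicate 1 it was -0.92 (adjusted p = 0.787), so the sign rested on that embryo. With *Zscan4c*, *Zscan4d* and *Zscan4f* alone summed it was 0.91 ± 0.94 (SE, adjusted p = 0.795). The *Tcstv* sum gave -0.90 ± 0.88 (SE, adjusted p = 0.774) and the *Tdpoz* sum 0.16 ± 0.35 (SE, adjusted p = 0.933). The same fit called 1.45% of its 10446 genes. Because each library was a whole embryo, fewer cells with a transcript and less transcript per cell cannot be told apart.

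**Figure D4:**
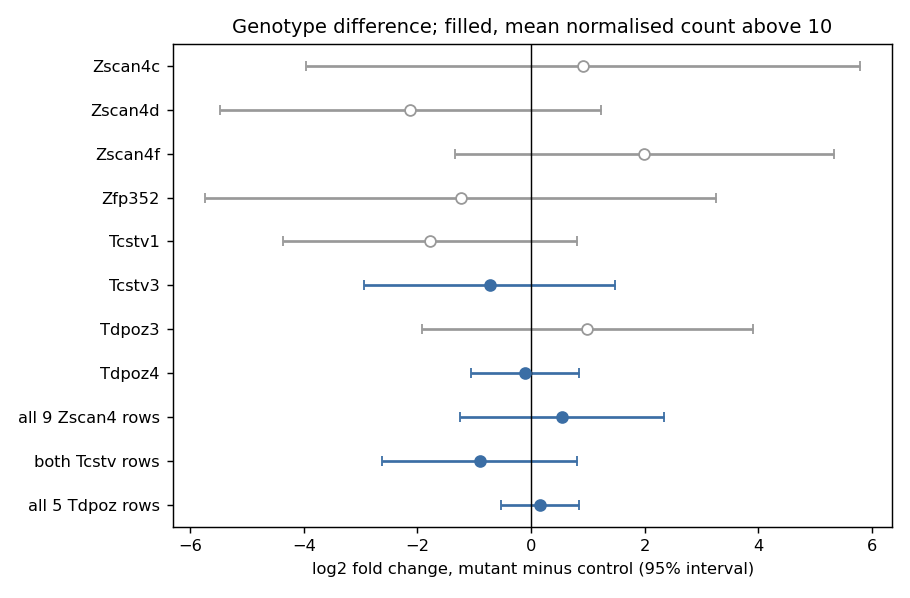
Log2 fold change, mutant minus control, with its 95% interval (x axis) for each of the 8 genes and for the summed family rows (y axis). Filled points had a mean normalised count above 10; every interval includes 0, and the *Tdpoz* sum has the narrowest, from -0.53 to 0.85.

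The batches were compared in the same fit, since each was collected and handled on its own and had its own number of PCR cycles, and these differences cannot be told apart. Again 0 of the 8 genes were called, beside 27.9% of all genes tested. The log2 fold change, batch 1 minus batch 2, was 0.56 ± 0.48 (SE, DESeq2 adjusted p = 0.438) for *Tdpoz4* and -0.10 ± 1.13 (SE, adjusted p = 0.963) for *Tcstv3*. No unadjusted DESeq2 p of the 7 genes with one was under 0.05 (all genes tested 39.7%), the smallest being 0.084 for *Tcstv1*. Of 3 genes tested, edgeR called 0 (all genes 19.7%) and limma 0 (all genes 17.9%), and the smallest unadjusted limma p was 0.055. The *Zscan4* sum gave 0.93 ± 0.92 (SE, adjusted p = 0.507).

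The relative *Tdpoz2*, which is not one of the 8 genes, was lower in batch 1 by both count tests and was not called by limma (adjusted p = 0.0733). It ranged from 4.47 to 40.2 TPM in batch 1 and from 17.5 to 52.7 TPM in batch 2. On the log2 scale the difference was -1.55 ± 0.45 (SE; adjusted p = 0.00470 in DESeq2 and 0.0308 in edgeR). In controls *Tdpoz2* averaged 7.07 ± 2.77 TPM (SD, n = 3) in batch 1 and 37.9 ± 13.6 TPM (SD, n = 3) in batch 2. In mutants it averaged 27.3 ± 18.3 TPM (SD, n = 2) and 29.2 ± 15.8 TPM (SD, n = 3), so the means of the batches lay far apart in controls and close together in mutants. The interaction of batch and genotype was 2.35 ± 0.73 (SE) on the log2 scale and was not called (DESeq2 adjusted p = 0.797). With all *Tdpoz* rows summed, the batch difference was -0.70 ± 0.35 (SE, DESeq2 adjusted p = 0.140) and was not called.

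Some markers of other cells moved with the batches. The summed TPM of 7 blood markers was 1.48 to 6.25 in batch 1 and 19.8 to 157 in batch 2, with *Lyz2* at 0 to 0.59 and 9.77 to 121 TPM, while *Hbb-bt* was at 0 throughout. The 6 oviduct markers summed to 32.5 to 45.2 TPM in batch 1 and 46.9 to 74.3 TPM in batch 2, with *Ovgp1* at 0 to 0.81 and 1.45 to 30.1 TPM. *Epcam* held most of the mean of that sum, at 39.1 TPM, and overlapped between batches, at 31.7 to 44.5 and 22.1 to 54.4 TPM. Sums of oocyte markers (69.7 to 114 and 73.9 to 166 TPM) and of cumulus markers (0 to 0.30 and 0 to 3.08 TPM) overlapped as well. The 8-cell markers summed to 440 to 1070 TPM in batch 1 and 267 to 517 TPM in batch 2, which overlapped. *Pou5f1* had the highest mean among them, at 184 TPM, with 106 to 486 and 34.2 to 144 TPM. Not every marker went this way, as *Klf4* was at 7.14 to 12.9 and 10.9 to 23.45 TPM. The part of all these markers in the levels of the 8 genes was not tested.

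Whether the genotype difference itself differed between batches was tested with an interaction term. None of the 8 genes was called, beside 0.0573% of 10472 genes tested. For *Tcstv3* the interaction was 2.36 ± 2.27 (SE) and for *Tdpoz4* 1.10 ± 0.99 (SE) on the log2 scale, both with a DESeq2 adjusted p of 1.00. The smallest unadjusted p over the 8 genes was 0.089, for *Tcstv1*, beside 4.31% of all genes tested with a p under 0.05. In edgeR 0 of 12740 genes were called and in limma 0 of 11675 (468 and 504 at an unadjusted p under 0.05), so these tests could not set the 8 genes apart.

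Some other genes known from the 2-cell stage were far more abundant. Of 41 such genes on a list, 16 were tested, and 1 was called between the genotypes, beside 1.45% of all genes. *Gm13119* was lower in mutants, at 0 to 5.66 TPM compared with 2.24 to 18.2 TPM in controls, and the groups overlapped. Its log2 fold change of -2.27 ± 0.64 (SE) had an adjusted p of 0.0341 in DESeq2 and 0.288 in edgeR, so edgeR did not call it. Among the 16 genes, 8 estimates were above 0 and 8 below, with a median log2 fold change of -0.09, beside -0.00 over all genes tested. At an unadjusted p under 0.05 there were 4 of the 16, *Gm13119* and *B020004J07Rik* with estimates below 0 and *Trim43a* and *Trim43b* above 0, beside 11.9% of all genes.

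The most abundant of the 41 genes by mean TPM were *Trim43a*, *Trim43b*, *Sp110*, *Trim43c* and *D5Ertd577e*. *Trim43a* ranged from 572 to 1300 TPM, *Trim43b* from 664 to 1175 TPM and *Sp110* from 455 to 1056 TPM. *Trim43c* ranged more widely, from 24.8 to 944 TPM, and *D5Ertd577e* from 30.8 to 120 TPM. The lowest of these embryo values, 24.8 TPM, exceeded the highest value of any of the 8 genes, 15.3 TPM. Sharing of reads among the 41 genes was not examined, so separate *Trim43* values may rest in part on how RSEM divided reads. *Trim43b*, which encodes a tripartite motif protein, was the only one of the 16 tested that was called between batches, beside 27.9% of all genes, with a log2 fold change of -0.40 ± 0.15 (SE, DESeq2 adjusted p = 0.0423).

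**Figure D5:**
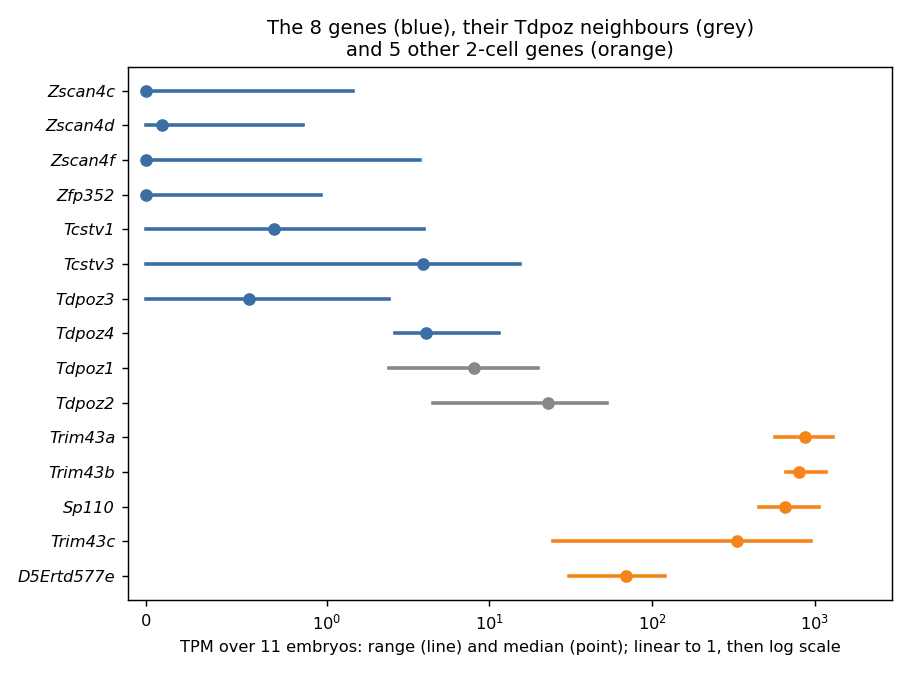
TPM over 11 embryos (x axis, linear up to 1 and logarithmic above) for the 8 genes (blue), *Tdpoz1* and *Tdpoz2* (grey) and the 5 most abundant other 2-cell genes (orange). Lines run from the lowest to the highest embryo and points are medians; the orange lines lie above all blue ones, whose highest value is 15.3 TPM.

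Regulators of the 2-cell program were examined from fixed lists of symbols. Of 6 activators, 5 were tested and 1 was called between the genotypes, beside 1.45% of all genes. This was *Tbx3*, a T-box factor, which was higher in mutants, at 30.2 to 114 TPM (median 48.7) compared with 11.8 to 71.0 TPM (median 34.3) in controls. Its log2 fold change of 0.87 ± 0.25 (SE) had an adjusted p of 0.0425 in DESeq2 and 0.228 in edgeR, so edgeR did not call it either. The groups overlapped. *Tbx3* and *Nelfa*, a subunit of the negative elongation factor, were the 2 of 5 called between batches, beside 27.9% of all genes, and were higher in batch 1, by 1.06 ± 0.25 (SE) and 0.76 ± 0.23 (SE) on the log2 scale.

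Of 16 repressors, 16 were tested and 0 were called between genotypes, by DESeq2 (all genes 1.45%) or by edgeR (all genes 0.271%), with 2 at an unadjusted DESeq2 p under 0.05, beside 11.9% of all genes. Between batches, DESeq2 called 5 of the 16 lower in batch 1, beside 27.9% of all genes called in either direction, and edgeR called 3, beside 19.7%. These shares are close to those over all genes. *Rif1*, a telomere and replication timing factor, fell by 1.54 and *Smchd1*, a chromatin protein of the inactive X chromosome, by 1.02 on the log2 scale. *Kdm1a*, a histone demethylase, fell by 0.80. *Zmym2* and *Setdb1*, a histone methyltransferase, fell by 0.78 and 0.63 in DESeq2 and were not called by edgeR (adjusted p = 0.0657 and 0.0640). The 8 genes showed no called difference beside these batch differences.

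As a description, the genes whose normalised counts over the 11 embryos ranked most like the *Zscan4* sum were sought among 10484 genes with a baseMean above 10. They were *Nfil3* (Spearman's rho 0.86), *Il17re* (0.84), *Snap91* (0.83), *Uap1* (0.82) and *Gm9531* (0.82), with Pearson's r of log2 counts from 0.53 to 0.90. For *Tdpoz4*, they were *Gm38037* (rho 0.93), *Stk35* (0.92), *2010008C14Rik* (0.91), *Cacna1b* (0.90) and *Tlnrd1* (0.89), with r from 0.58 to 0.89. The points share libraries, depth scaling and batches, and these are the highest of many correlations over few embryos.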

How the data were processed

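The authors mapped reads with STAR (version 2.6.0c) to GRCm38.p6 and quantified genes with RSEM. The deposited tables hold, for each embryo, an expected count, fractional where reads are divided among similar genes, and a TPM, corrected for gene length and library size. The authors' comparison table (fold changes and p-values) was not used. Reads copied by PCR were counted separately, so precision covers counting error only. Gene symbols (54079 of 54146 rows) and transcript windows came from GENCODE vM21, which is later than the authors' annotation. Nothing in the labels says that embryos came from separate litters.

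Expected counts were rounded. Genotype and batch were modelled together in DESeq2 (version 1.42.0), without shrinkage of fold changes. Wald p-values were adjusted by Benjamini-Hochberg over the whole table, all-zero rows included, with independent filtering at 0.05. A missing adjusted p stayed missing. In all, 4 combinations of row set and filtering level were compared after the data had been seen, and gave 141, 144, 148 and 151 genes called between genotypes. The combination with 151 was kept because it equals an earlier analysis of these data, and 0 of the 8 genes was called in any of them. Family sums were formed before rounding and refitted. Alternatives used edgeR (version 4.0.16), limma (version 3.58.1), other factors and filters, single batches, and fits without each embryo in turn. Tests were checked on simulated data, in which the share of false calls exceeded the nominal level in DESeq2 but not in edgeR or limma, so calls by DESeq2 alone are less certain. The genes and lists were chosen with earlier results of these data known. Genes named besides the 8 were the called members of each list, the 5 other 2-cell genes of highest mean TPM, relatives of highest mean TPM or sharing reads, and the 5 genes most alike in rank.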

Additional observations from a re-analysis of the deposited data

Results flagged for a closer look

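Of 26 sets of TPM values tested (8 genes and 5 sums, each in controls and in mutants), 4 held an embryo far from the others by Dixon's criterion. Chance gives about 1 in 20 for normally distributed values, a rate that need not hold here because several sets consist largely of zeros. All 4 values came from the 2 mutants of batch 1. Mutant replicate 4 stood apart for *Zscan4c*, at 1.45 TPM (13.2 reads) with the other mutants at 0, where any single value above 0 would stand apart, and for *Zscan4d*, at 0.59 TPM (5.39 reads) with the next at 0.09. It also stood apart for *Tcstv1*, at 3.94 TPM (15.2 reads) with the next at 0.83. Mutant replicate 5 stood apart for *Tdpoz4*, at 11.4 TPM (50.1 reads) with the next at 4.08. Batch 1 holds only 2 mutants, and in no case did the other one share the outlying value. That other mutant had 0 TPM for *Zscan4c* and *Zscan4d*, 0.83 for *Tcstv1* and 4.08 for *Tdpoz4*. The cause was not tested.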

How the results depend on the processing

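The number of the 8 genes called between genotypes was 0 under all 24 alternatives, between batches 0 under all 22, and in the interaction 0 under all 18, although 2 genes were tested in most DESeq2 fits and 3 to 5 in edgeR and limma. The *Zscan4* sum kept its sign and stayed uncalled under 22 of 23 alternatives. Leaving out each embryo gave log2 fold changes from -0.92 (without mutant replicate 1) to 1.05, and the other settings gave 0.19 to 0.91. For *Tdpoz4* the sign turned without mutant replicate 4 (0.02), without control replicate 1 (0.23) and in batch 1 alone (0.48), with a range of -0.59 to 0.23 over embryos left out. For *Tcstv3* it turned in batch 1 alone (0.56), and leaving out each embryo gave -1.11 (without control replicate 6) to -0.22 (without control replicate 3), with -0.29 without mutant replicate 1. Among the 6 genes of lower count, not tested in DESeq2 for their baseMean, the sign turned for *Zscan4c* without mutant replicate 4 (-1.28), for *Zscan4f* without mutant replicate 1 (-0.63) and for *Tcstv1* in batch 1 alone (0.28). It turned for *Zfp352* without control replicate 2 (1.21), with no batch term (0.49) and in batch 1 alone (2.32). For *Zscan4d* and *Tdpoz3* it turned under no alternative that gave a value. The cause was not tested. Over all genes, leaving out 1 embryo gave 90 to 265 calls between genotypes, the highest without control replicate 2, beside 151 with all embryos, and edgeR gave 32, limma 17, DESeq2 with no independent or Cook filter 88, with no batch term 51, and batches 1 and 2 alone 78 and 48. No paired analysis was possible because the labels carry no replicate numbers and the numbers used here only follow the order of the samples. Low counts kept the 6 genes with a baseMean of 10 or less out of the DESeq2 calls.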
